A study of Homo sapiens with 6 samples.

Results

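Interferon-stimulated genes are the genes that cells switch on when an interferon binds its receptor, and 49 of them were followed here in RNA of the adrenocortical carcinoma line H295R and of its derivative H295R-PM-Ptc+. They were taken by symbol from the deposited count table, which lists 57341 genes, and all 49 were present. Of the 49 genes, 46 passed the filter on low counts and were tested among 16710 genes, while IRF7, MX2 and OASL did not pass.

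Type I interferons signal through the receptor chains IFNAR1 and IFNAR2 and the kinases JAK1 and TYK2 to a complex that includes STAT2 and IRF9, which binds a promoter element called the interferon-stimulated response element (ISRE). Interferon gamma signals through IFNGR1 and IFNGR2 to promoters with a gamma-activated site (GAS), and IRF1 then binds ISRE-like elements in its turn. The induced proteins block viral entry, translation and replication, sense foreign RNA, conjugate the ubiquitin-like ISG15, and prepare antigens, and many tumor lines keep a part of the program on without added interferon.

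The study compared parental H295R cells with H295R-PM-Ptc+ cells, a small fraction of the same line that was sorted with an antibody against the Hedgehog receptor Ptch1 at the cell surface and then grown on. H295R is an established line derived from a human adrenocortical carcinoma. Both populations grew in DMEM/F12 with NuSerum and ITS+, no agent was added to either, and RNA of 3 replicates of each was sequenced as stranded paired reads. Total counts ran from 23264403 to 25813247 per library. Nothing in the labels says that replicates were separate cultures, so p-values measure the spread between these libraries, which may be technical.

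The labels need care. PTCH1, the gene behind the sort, had 441, 559 and 579 counts in the libraries labelled H295R and 248, 326 and 319 in those labelled H295R-PM-Ptc+. Its log2 fold change was -0.81 ± 0.147 (SE; adjusted p = 0.0207, edgeR), so it went against the label. The call was lost without H295R replicate 2 (adjusted p = 0.0799), H295R replicate 3 (0.0921) or H295R-PM-Ptc+ replicate 2 (0.0618). In addition, all 6 columns of the study's own normalized table matched, over 626 genes, the deposited column of the same replicate code with the other group name. Groups are named below as the deposited labels name them, each direction is that of libraries labelled H295R-PM-Ptc+ over libraries labelled H295R, and every direction turns round if the deposited labels are the exchanged ones. The adrenocortical markers NR5A1, at 326 to 407 CPM (read counts scaled to a total of 1e6 per library), and STAR, at 249 to 516 CPM, were present in all 6 libraries. All 9 adrenocortical markers listed were tested, and CYP21A2, which encodes the steroid 21-hydroxylase, was higher by 0.88 ± 0.126 on the log2 scale (adjusted p = 0.00670), while STAR was higher (adjusted p = 3.91e-06) and CYP11A1 lower (adjusted p = 0.00100) with the replicate number as a block only.

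The promoters of the called members show where the 2 interferon elements lie. Each line gives 160 bases before the RefSeq start of the gene and 20 bases from it on, 5′ to 3′ on the gene's strand, in GRCh38.p14, with capitals where the letters of a search matched on either strand. The searches were GAAANNGAAA for the ISRE core and TTCNNNGAA for the GAS core, and the lines are given for the members called at an adjusted p below 0.05 that had a RefSeq entry.
GBP1, chr1:89065189-89065368 (- strand): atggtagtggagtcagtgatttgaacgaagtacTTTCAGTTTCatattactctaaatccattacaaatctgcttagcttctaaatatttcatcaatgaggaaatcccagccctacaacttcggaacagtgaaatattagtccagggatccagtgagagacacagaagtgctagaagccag
GBP3, chr1:89022847-89023026 (- strand): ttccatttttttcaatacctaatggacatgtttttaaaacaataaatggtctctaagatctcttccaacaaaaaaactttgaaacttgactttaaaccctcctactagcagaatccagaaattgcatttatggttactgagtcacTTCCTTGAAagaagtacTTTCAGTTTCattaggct
GBP4, chr1:89198923-89199102 (- strand): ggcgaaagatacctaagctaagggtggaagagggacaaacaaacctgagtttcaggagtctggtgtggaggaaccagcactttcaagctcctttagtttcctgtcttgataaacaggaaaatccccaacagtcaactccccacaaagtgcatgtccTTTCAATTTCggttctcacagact
IFIT3, chr10:89332369-89332548 (+ strand): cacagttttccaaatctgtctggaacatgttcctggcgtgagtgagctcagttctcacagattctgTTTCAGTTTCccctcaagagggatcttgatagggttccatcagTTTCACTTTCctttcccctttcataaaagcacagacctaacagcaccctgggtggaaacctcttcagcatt
IRF1, chr5:132490754-132490933 (- strand): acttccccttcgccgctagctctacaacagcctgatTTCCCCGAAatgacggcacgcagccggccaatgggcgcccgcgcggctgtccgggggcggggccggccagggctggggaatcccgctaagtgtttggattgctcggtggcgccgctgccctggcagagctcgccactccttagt
DDX60, chr4:168318733-168318912 (- strand): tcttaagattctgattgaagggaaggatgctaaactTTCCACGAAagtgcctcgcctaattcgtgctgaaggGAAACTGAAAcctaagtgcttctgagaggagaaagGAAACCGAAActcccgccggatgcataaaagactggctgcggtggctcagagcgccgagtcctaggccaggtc
EPSTI1, chr13:42992222-42992401 (- strand): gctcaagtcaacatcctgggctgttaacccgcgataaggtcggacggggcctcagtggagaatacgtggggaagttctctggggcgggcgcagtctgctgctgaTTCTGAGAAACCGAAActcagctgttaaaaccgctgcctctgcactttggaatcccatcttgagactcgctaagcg
HERC5, chr4:88456959-88457138 (+ strand): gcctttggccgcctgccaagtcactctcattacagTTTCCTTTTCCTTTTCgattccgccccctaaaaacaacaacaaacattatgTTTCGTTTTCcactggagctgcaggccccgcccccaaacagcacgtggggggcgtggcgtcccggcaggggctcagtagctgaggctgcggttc
XAF1, chr17:6755886-6756065 (+ strand): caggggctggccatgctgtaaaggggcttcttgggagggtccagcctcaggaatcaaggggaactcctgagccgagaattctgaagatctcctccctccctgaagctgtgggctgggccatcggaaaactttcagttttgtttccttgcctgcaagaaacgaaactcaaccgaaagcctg

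GBP1, GBP3, GBP4, IFIT3, DDX60, EPSTI1 and HERC5 held ISRE letters in this stretch, IRF1 held GAS letters only, and neither RefSeq start of XAF1 held a match between 250 bases before and 50 bases after it. In GBP4 the ISRE letters span the start itself, and in GBP3 they begin 2 bases after it with a GAS match before it. In EPSTI1 the GAS and ISRE letters overlap by 3 bases, and in HERC5 a pair of ISRE matches overlaps. HERC5 is the one called member that was lower, and its promoter carried 3 ISRE matches. IFIT3 has another RefSeq start, which held a pair of ISRE matches as well. Of the 40 members with a RefSeq window, 26 held ISRE letters and 14 held GAS letters, while of all 27305 genes in the RefSeq promoter set, 4.38% held ISRE letters and 9.38% GAS letters in at least 1 window. Among single windows of 300 bases the shares were 3.57% and 7.66%. A match describes the letters only and is not a measured binding site.

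**Figure D1:**
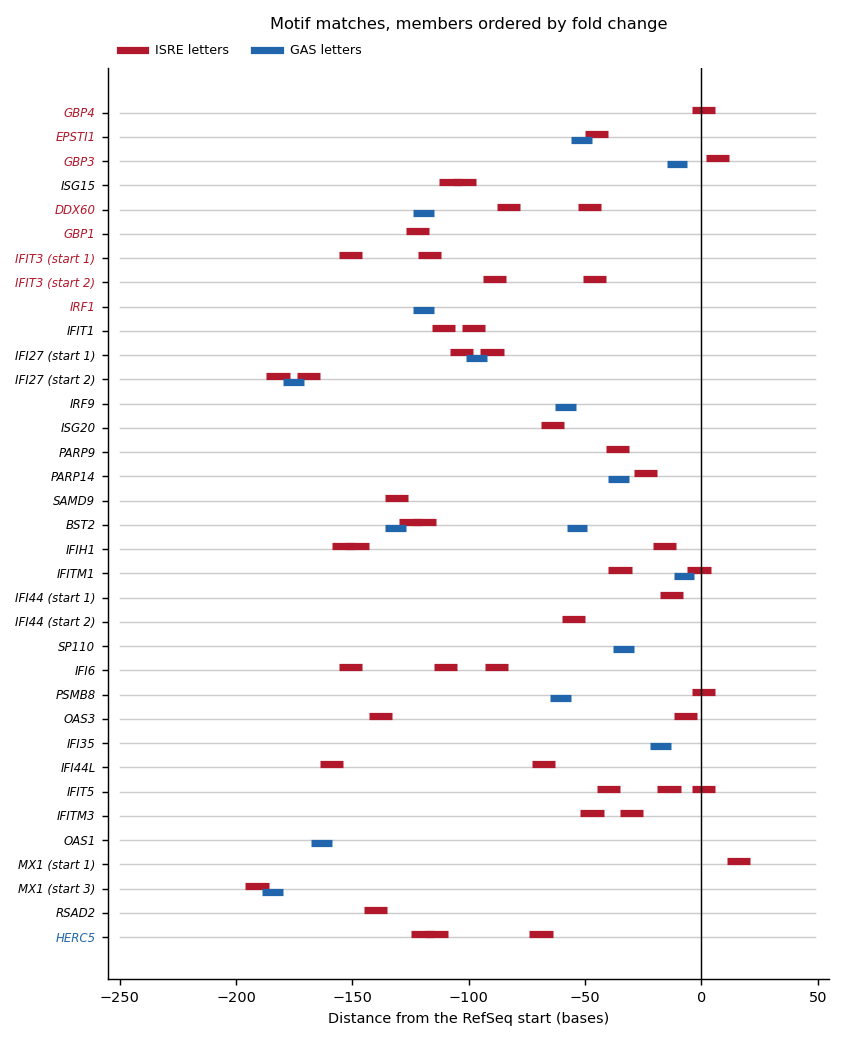
Positions of ISRE letters (red) and GAS letters (blue) relative to the RefSeq start (x axis, bases) in the windows of members that held a match, ordered from the highest to the lowest log2 fold change; names in red or blue belong to members called higher or lower. Called members carried matches at the top of the order, and so did members near 0, such as IFI6 with 3 ISRE matches, and HERC5 at the bottom.

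Of the 46 tested members, 9 were higher and 1 was lower in H295R-PM-Ptc+ at an adjusted p below 0.05, as the libraries are labelled (edgeR quasi-likelihood test, Benjamini-Hochberg over all 16710 genes). The 9 were the guanylate-binding protein genes GBP1, GBP2, GBP3 and GBP4, the apoptosis gene XAF1, the stromal interaction gene EPSTI1, the RNA sensor gene DDX60, the translation inhibitor gene IFIT3 and the transcription factor gene IRF1, and the 1 was the ISG15 ligase gene HERC5. They made up 19.6% of the tested members, where 2.42% of all tested genes were called higher, and the single lower member made up 2.17%, where 1.32% of all tested genes were called lower. GBP1, GBP2, GBP3, IFIT3, IRF1 and XAF1 also stand in a gene module that the study picked on these same libraries, so they are not independent of it. XAF1, GBP4 and EPSTI1 passed the filter, which asks for about 0.4 CPM in 3 libraries, only through the group in which they were high. With these set aside, and with IFITM3 and OAS2, which fell short of that level in single libraries of 1 group, 6 of the remaining 41 members were higher (14.6%), against 2.08% of all genes treated the same way.

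The replicate numbers paired the libraries, since the descriptions of same-numbered libraries share a code and their deviations correlated. With the replicate number as a block, edgeR called 19 members higher (41.3%, against 12.1% of all genes) and 2 lower (4.35%, against 10.4% of all genes). The 11 added members were IFIT1, IFIT2, ISG15, IRF9, SAMD9, SAMD9L, PARP9, PARP14, BST2 and SP100, which were higher, and USP18, which was lower. The groups of 3 did not overlap for 15 members that were higher (32.6%, against 12.4% of all genes) and for 2 that were lower (4.35%, against 11.2%), namely HERC5 and IFIT5. Both the 19 and the 15 include XAF1, GBP4 and EPSTI1, which passed the filter only through the group in which they were high. These shares were not taken without them. The exact permutation test on a single gene cannot give less than 0.1 with 3 against 3 libraries.

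The members as a group lay a little above 0. Their median log2 fold change was 0.21, with quartiles of -0.04 and 0.46, while all tested genes had a median of 0.001 and quartiles of -0.12 and 0.14. Of the 46, 30 lay above 0 (65.2%, against 50.2% of all tested genes), 24 were higher in all 3 pairs (all tested genes, 26.9%) and 7 were lower in all 3 pairs (all tested genes, 25.7%). The median fell to 0.08 without H295R-PM-Ptc+ replicate 1 and to 0.13 without H295R replicate 3.

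**Figure D2:**
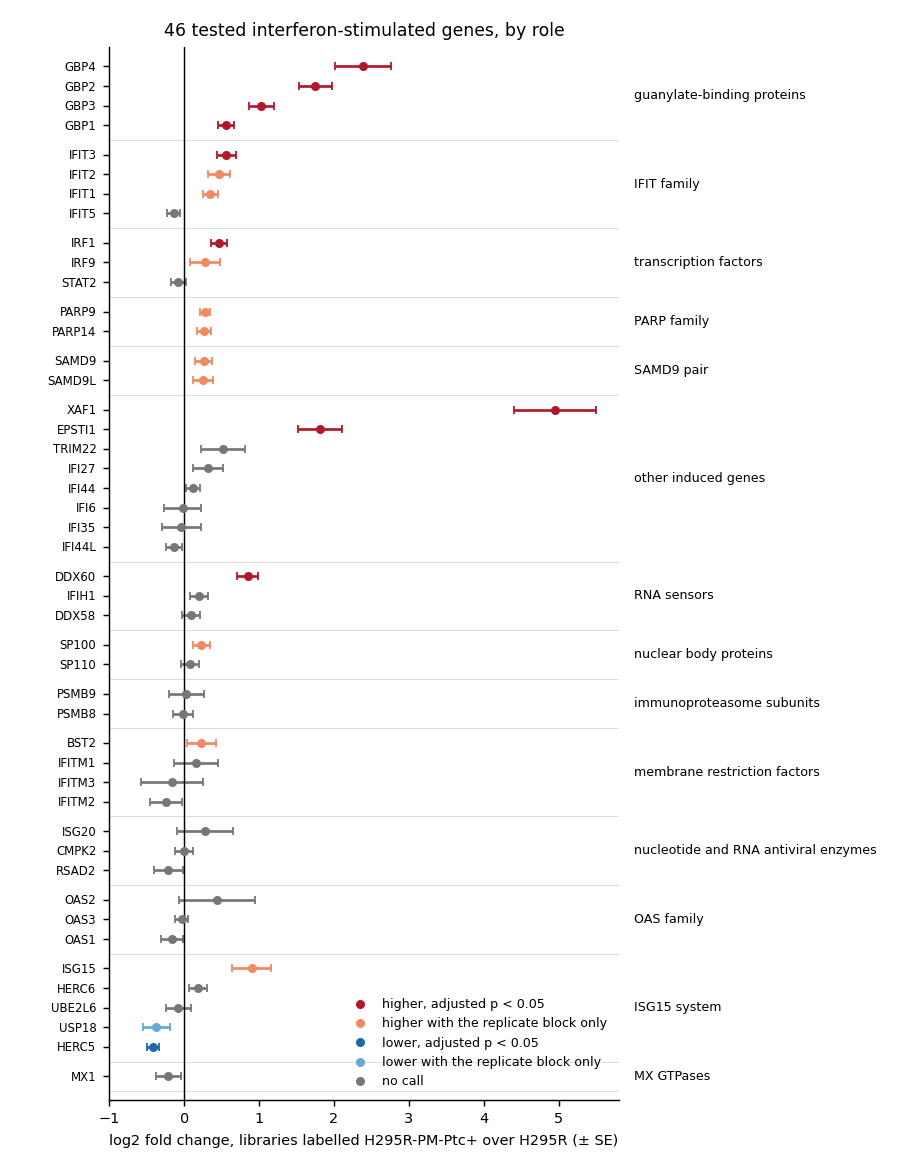
Log2 fold change of libraries labelled H295R-PM-Ptc+ over H295R (x axis, ± SE from the edgeR fit, 3 libraries per group) for the 46 tested members, grouped by role; dark red and dark blue mark calls at an adjusted p below 0.05, light red and light blue calls made only with the replicate block, and gray no call. The 4 guanylate-binding proteins, with XAF1, EPSTI1, DDX60, IFIT3 and IRF1, stand to the right of 0, and most members of the OAS, IFITM and immunoproteasome groups lie across it.

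The guanylate-binding proteins are GTPases that gather on the membranes of vacuoles holding microbes and on viral replication sites. All 4 members of this group were higher, with log2 fold changes from 0.56 to 2.39 and a median of 1.39. They lie near each other on chromosome 1, from GBP3 at chr1:89006666-89022894 to GBP4 at chr1:89181148-89198932, on the minus strand. The relatives GBP5 and GBP6 are not among the members and had too few counts to be tested. GBP5 had 8, 2 and 5 counts against 12, 4 and 2, and GBP6 had at most 2 counts in any library.

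GBP2 had 2.59, 3.03 and 2.10 CPM in the libraries labelled H295R and 10.9, 8.73 and 6.39 CPM in those labelled H295R-PM-Ptc+. The lowest of the second group was above the highest of the first by more than the range within the first group. The log2 fold change was 1.75 ± 0.223, or 3.37-fold (adjusted p = 0.00341, edgeR), and GBP2 stayed called without any 1 library, at adjusted p from 0.00395 to 0.0230. GBP4, by contrast, was close to the detection limit in the libraries labelled H295R, with 4, 5 and 3 counts, and had 29, 17 and 18 counts in the others. That is 0.162 ± 0.0380 against 0.865 ± 0.238 CPM (SD, n = 3), a log2 fold change of 2.39 ± 0.372 (adjusted p = 0.00988), which missed the threshold without H295R replicate 3 (adjusted p = 0.0608).

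GBP3 had 6.28, 4.80 and 4.37 CPM against 12.4, 9.81 and 9.29 CPM, a log2 fold change of 1.03 ± 0.171 (adjusted p = 0.0136, edgeR). In both groups replicate 1 was the highest, and the 3 pairs gave almost the same difference, 0.98, 1.03 and 1.09 on the log2 scale. The call was lost without H295R replicate 2 (adjusted p = 0.0635) or H295R replicate 3 (adjusted p = 0.0680). GBP1, the most abundant of the family at 7.39 CPM per kilobase of exon (FPKM) in H295R libraries, had 31.9, 42.2 and 36.7 CPM against 50.0, 57.6 and 56.1 CPM. Its groups did not overlap, and the log2 fold change of 0.56 ± 0.110 was the smallest of the 4 (adjusted p = 0.0276, edgeR), with the call lost without H295R replicate 3 (0.119), H295R-PM-Ptc+ replicate 2 (0.117) or H295R-PM-Ptc+ replicate 3 (0.124). Reads of these near relatives were counted at their primary position when they mapped to several places, so the split between them is uncertain, and the same holds for the IFIT, IFITM, OAS, SAMD9 and HERC relatives.

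**Figure D3:**
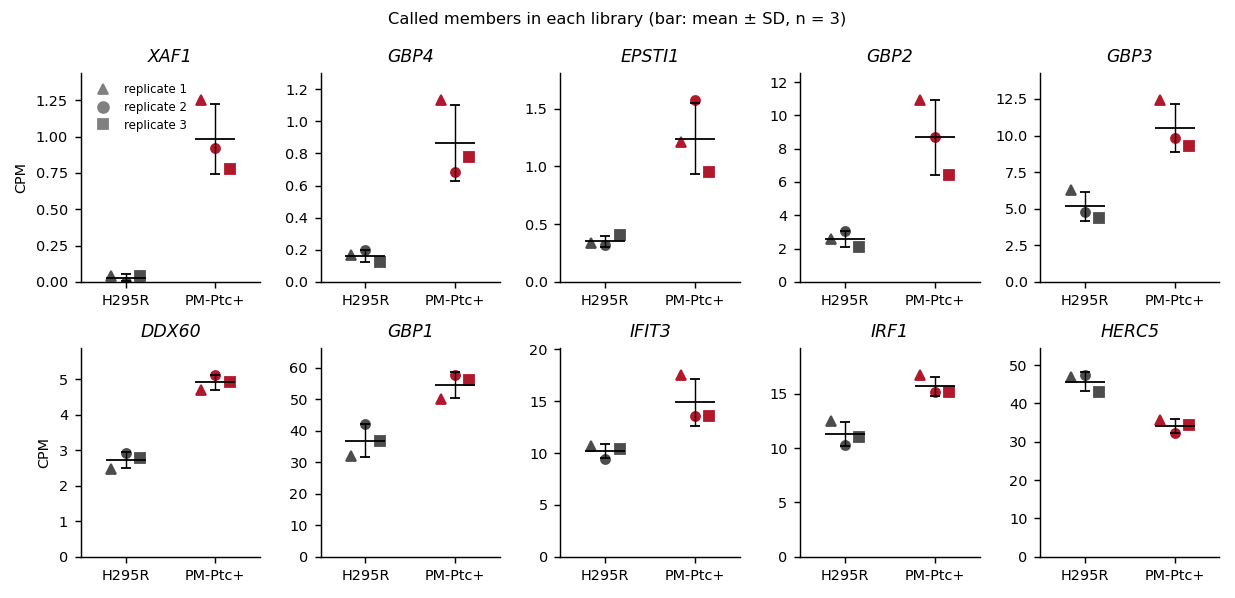
CPM (y axis, linear and starting at 0) of the 10 called members in each library labelled H295R (gray) or H295R-PM-Ptc+ (red), with symbols for the replicate number and the mean ± SD of 3 libraries in black. For all 10 genes the symbols of the groups do not overlap, and HERC5 is the 1 gene with the gray symbols on top.

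XAF1, which binds the apoptosis inhibitor XIAP, went from nearly silent to low. It had 1, 0 and 1 counts in the libraries labelled H295R and 32, 23 and 18 in those labelled H295R-PM-Ptc+. The ratio of the summed counts at equal depth was 36.7, with a 95% counting interval of 9.81 to 309, and edgeR gave an adjusted p of 0.00171. The gene stayed called without any 1 library, at adjusted p from 0.00265 to 0.0135, and even at its higher level it reached 0.149 FPKM, far under the 1 FPKM that 35 of the tested members passed in H295R libraries.

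EPSTI1, named for its induction in epithelial cells by stromal cells, had 0.335, 0.315 and 0.405 CPM against 1.21, 1.57 and 0.950 CPM. The groups did not overlap, and the log2 fold change was 1.81 ± 0.297 (adjusted p = 0.0124, edgeR). The adjusted p rose to 0.0641 without H295R replicate 2, 0.0544 without H295R replicate 3 and 0.0554 without H295R-PM-Ptc+ replicate 2. Other induced genes, namely IFI6, IFI27, IFI35, IFI44, IFI44L and TRIM22, had no call in either fit. IFI44 was the second most abundant member per length, at 25.9 FPKM in H295R libraries, and had 52.1, 56.7 and 49.8 CPM against 62.4, 57.7 and 52.5 CPM.

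Of the RNA sensors, DDX60, a helicase that works with RIG-I, was higher. It had 2.47, 2.91 and 2.79 CPM against 4.69, 5.11 and 4.92 CPM, with a narrow spread in both groups. The log2 fold change was 0.85 ± 0.140 (adjusted p = 0.0130, edgeR), and the call was lost without H295R replicate 3 (adjusted p = 0.0643), H295R-PM-Ptc+ replicate 2 (0.0680) or H295R-PM-Ptc+ replicate 3 (0.0608). DDX58, which encodes RIG-I, and IFIH1, which encodes MDA5, had log2 fold changes of 0.09 ± 0.115 and 0.20 ± 0.117 and no call.

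The IFIT proteins bind viral RNA caps and stall translation. IFIT3 had 10.7, 9.45 and 10.4 CPM in the libraries labelled H295R and 17.5, 13.6 and 13.6 CPM in those labelled H295R-PM-Ptc+, and the log2 fold change was 0.56 ± 0.127. Its adjusted p of 0.0490 (edgeR) lay just under the threshold, and it rose past it without any 1 library other than H295R replicate 1, to 0.157 without H295R replicate 2, 0.156 without H295R replicate 3, and 0.114, 0.0929 and 0.105 without H295R-PM-Ptc+ replicates 1, 2 and 3. It was 0.0549 with limma-voom and 0.0572 where every library had to hold at least 10 counts. Its relatives IFIT1 and IFIT2, near it on chromosome 10, had smaller fold changes in the same direction. IFIT1 had 35.7, 32.6 and 31.2 CPM against 47.0, 41.3 and 38.2 CPM, a log2 fold change of 0.35 ± 0.0968 with an adjusted p of 0.0929, or 3.92e-04 with the block. IFIT2 had 7.74, 7.05 and 6.76 CPM against 11.9, 8.41 and 9.59 CPM, a log2 fold change of 0.47 ± 0.147 with an adjusted p of 0.127, or 0.00439 with the block. Neither gene's groups overlapped. IFIT5 went the other way by -0.14 ± 0.0875, without a call, and its groups did not overlap either.

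Among the transcription factors IRF1, which acts downstream of interferon gamma, had 12.5, 10.3 and 11.0 CPM against 16.7, 15.2 and 15.2 CPM. The log2 fold change was 0.47 ± 0.107 (adjusted p = 0.0470, edgeR), and as with IFIT3 the call needed all libraries but H295R replicate 1, with an adjusted p of 0.147 and 0.178 without H295R replicates 2 and 3, of 0.126, 0.135 and 0.148 without H295R-PM-Ptc+ replicates 1, 2 and 3, and of 0.0552 under the filter that asks for at least 10 counts per library. IRF9 had 13.2, 8.23 and 8.78 CPM against 14.7, 11.9 and 9.94 CPM. Its groups overlapped, and it was called with the block (adjusted p = 0.0434) but not without it (0.542). STAT2, at 76.5 to 94.3 CPM against 73.1 to 85.8 CPM, had a log2 fold change of -0.08 ± 0.0992 and no call. IRF7, the master regulator of interferon alpha genes, had 0 counts in all 6 libraries. The annotation repeats IRF7 on an alternate contig, and of the 11 genes with a copy there 8 had 0 counts in every library, against 4 of 29 other genes within 200 kb of IRF7, so its 0 is no measure of its level and sets no upper limit on it.

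ISG15 and its machinery differed in direction. ISG15, the ubiquitin-like modifier, had 1.38, 0.906 and 0.728 CPM in the libraries labelled H295R and 2.19, 1.77 and 1.64 CPM in those labelled H295R-PM-Ptc+. Its groups did not overlap, the log2 fold change was 0.90 ± 0.262, and the adjusted p was 0.106, or 0.00749 with the block. HERC5, which attaches ISG15 to new proteins, was the lower member. It had 46.9, 47.3 and 43.0 CPM against 35.7, 32.2 and 34.4 CPM, a log2 fold change of -0.42 ± 0.0783 (adjusted p = 0.0216, edgeR). It missed the threshold without H295R replicate 2 (0.0824), H295R replicate 3 (0.0544), H295R-PM-Ptc+ replicate 2 (0.113) or H295R-PM-Ptc+ replicate 3 (0.0933).

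USP18, which removes ISG15 and holds back the type I receptor, had 15.7, 10.6 and 11.7 CPM against 11.5, 7.88 and 9.89 CPM. The groups overlapped, yet each pair fell, by -0.44, -0.42 and -0.24 on the log2 scale, and it was called with the block (adjusted p = 0.00743) but not without it (0.351). The conjugating enzyme gene UBE2L6 (log2 fold change -0.08 ± 0.168) and the ligase relative HERC6 (0.18 ± 0.119) had no call in either fit.

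PARP9 and PARP14, ADP-ribosyltransferase family members that lie near each other on chromosome 3, had small fold changes and were called only with the block. PARP9 had 33.0, 34.1 and 33.5 CPM against 40.9, 40.7 and 40.6 CPM, a log2 fold change of 0.28 ± 0.0677 with an adjusted p of 0.0590, or 0.00188 with the block. PARP14 had 39.2, 47.4 and 45.4 CPM against 49.1, 56.6 and 52.8 CPM, a log2 fold change of 0.26 ± 0.0943 with an adjusted p of 0.188, or 0.00190 with the block. The groups did not overlap for either gene.

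SAMD9 and SAMD9L, adjacent genes on chromosome 7 whose products restrict poxviruses and slow growth, were called only with the block. SAMD9 had 48.9, 60.3 and 56.4 CPM against 57.2, 74.7 and 66.5 CPM, with pair differences of 0.23, 0.31 and 0.24 and an adjusted p of 0.00143 with the block against 0.290 without it. SAMD9L had 26.4, 35.7 and 33.7 CPM against 33.0, 41.4 and 39.7 CPM, with an adjusted p of 0.00486 against 0.372. In both genes the groups overlapped because replicate 1 was the lowest library of its group.

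BST2, or tetherin, which holds budding virions on the cell surface, was by far the most abundant member per length, at 85.1 FPKM in H295R libraries and 99.7 FPKM in the others. It had 126, 75.4 and 83.9 CPM against 133, 96.5 and 106 CPM. The groups overlapped, and it was called with the block (adjusted p = 0.00432) but not without it (0.618). The IFITM genes, whose products block viral entry, had 3.5 to 7.43 CPM (IFITM1), 2.25 to 3.98 CPM (IFITM2) and 0.394 to 1.21 CPM (IFITM3) over all 6 libraries, and their log2 fold changes of -0.24 to 0.16 had no call. SP100, a component of nuclear bodies, had 16.4, 14.6 and 13.0 CPM against 18.8, 16.6 and 16.2 CPM and was called with the block (adjusted p = 0.0417) but not without it (0.353), and its relative SP110 was not called.

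OAS1, OAS2 and OAS3 make the messenger that activates RNase L, and their log2 fold changes were -0.16 ± 0.149, 0.44 ± 0.512 and -0.03 ± 0.0863. MX1, a GTPase against influenza viruses, had 7.53, 5.67 and 5.38 CPM against 5.13, 5.95 and 5.01 CPM. RSAD2 (viperin), CMPK2 and the nuclease gene ISG20 had log2 fold changes of -0.21 ± 0.192, 0.00 and 0.28 ± 0.378. MX2 and OASL held at most 10 and 11 counts in any library and were not tested. The immunoproteasome subunit genes PSMB8 and PSMB9, which shape peptides for antigen display, had log2 fold changes of -0.02 ± 0.134 and 0.03 ± 0.238. In all, 25 tested members had no call in either fit, with log2 fold changes of -0.24 to 0.52 and standard errors of 0.0863 to 0.512. The change of IFIT3, 0.56 ± 0.127, only just passed the threshold. A change of that size could be missed in any of them with a larger standard error.

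Over the 6 libraries the most abundant members per length were BST2 (92.4 FPKM), IFI44 (27.0 FPKM), UBE2L6 (24.2 FPKM), PSMB8 (20.1 FPKM), IFI6 (19.1 FPKM) and STAT2 (13.5 FPKM), and of these BST2 was called with the block and none without it. The fold changes beyond 1.5 on the log2 scale were those of XAF1, GBP4, EPSTI1 and GBP2, whose mean levels were 0.0766, 0.0837, 0.162 and 0.895 FPKM. The first 3 of these were tested at such levels only because 1 group carried them past the filter, so nothing is read from how level and fold change lie together. In bulk RNA a difference in the level per cell and a difference in the share of cells that express a gene cannot be told apart.

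**Figure D4:**
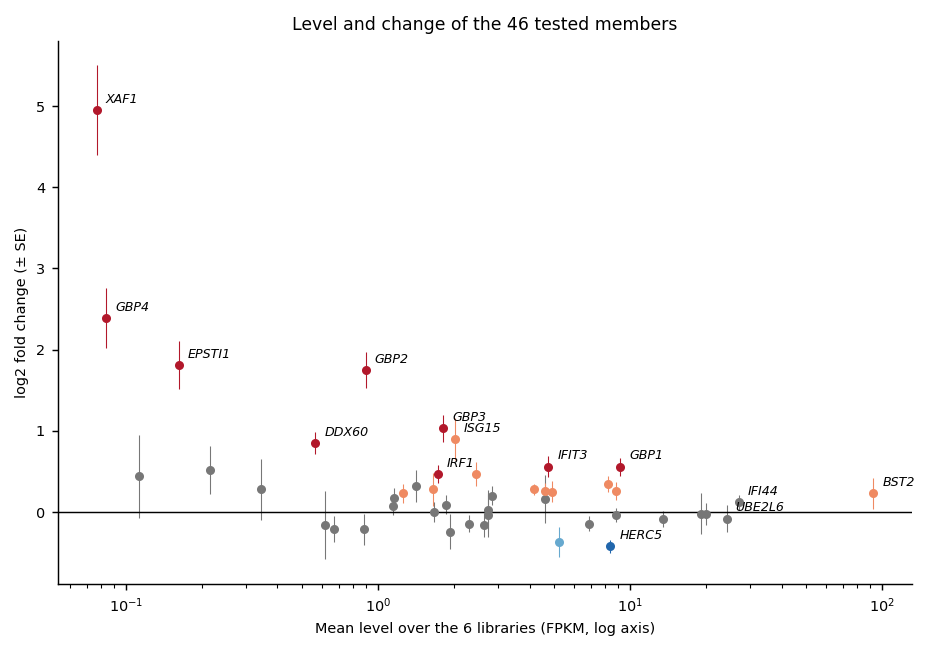
Mean level over the 6 libraries (x axis, FPKM on a log scale) against the log2 fold change (y axis, ± SE) of the 46 tested members; dark red and dark blue mark calls, light red and light blue calls made only with the replicate block, and gray no call. XAF1, GBP4 and EPSTI1, at the upper left, passed the filter only through the libraries labelled H295R-PM-Ptc+, and BST2 lies at the right at 92.4 FPKM.

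A different pattern followed the replicate number. In 13 tested members both replicate 1 libraries were above the other 4 (28.3%, against 16.2% of all genes), and in 2, OAS3 and SAMD9L, both were below them (4.35%, against 18.6% of all genes). The 13 were IFI6, IFI27, IFI35, IFITM1, IFITM2, ISG20, OAS1, STAT2, IRF9, BST2, UBE2L6, PSMB8 and PSMB9. IFI6 shows it plainly, with 22.5, 12.7 and 14.7 CPM in the libraries labelled H295R and 22.2, 12.6 and 14.4 CPM in those labelled H295R-PM-Ptc+, that is, equal within each pair and unequal between pairs. Of the 13, IRF9 and BST2 were called with the block and none without it. What sets replicate 1 apart was not tested.

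**Figure D5:**
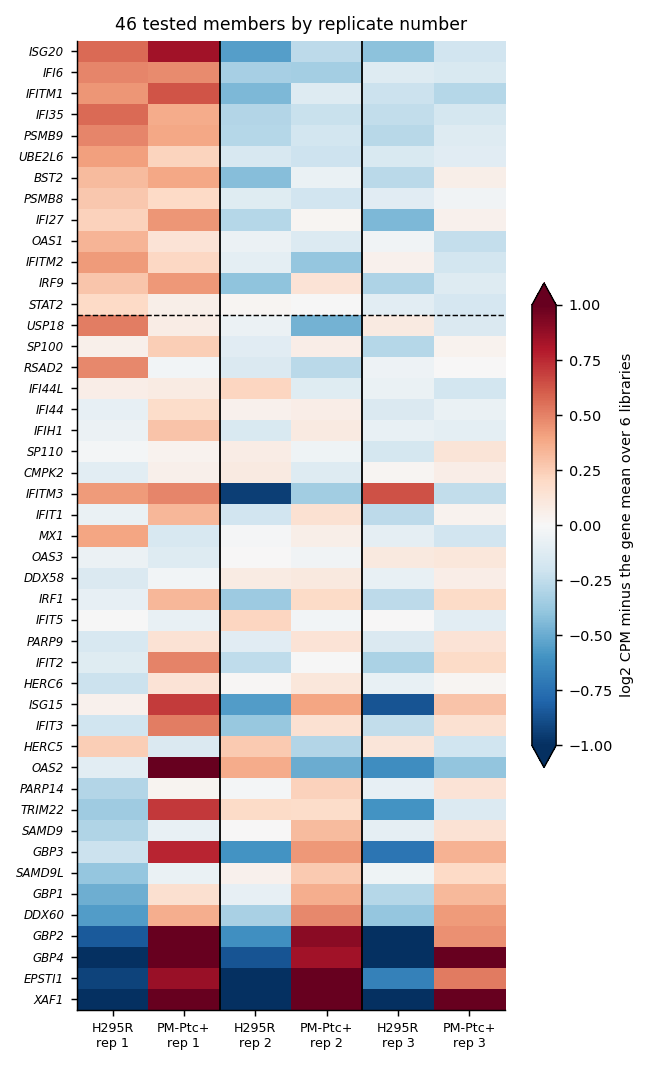
Log2 CPM of the 46 tested members in each library minus the gene's mean over the 6 libraries (color, cut at -1 and 1), with libraries ordered by replicate number; the 13 members above the dashed line had both replicate 1 libraries above the other 4. The upper rows are red in both replicate 1 columns and mostly blue or pale elsewhere, and the lowest rows alternate by group.

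The genes upstream of the members were read from lists chosen for the pathway. Of the 21 interferon genes themselves 19 had 0 counts in every library, which allows a level of up to 0.117 to 0.130 CPM at 3 counts, and the other two, IFNE and IFNL1, had 1 count in a single library each. All 6 receptor chains were tested and none was called. IFNAR1 had 79.6 to 98.4 CPM against 74.3 to 102 CPM (log2 fold change -0.01 ± 0.130), IFNAR2 a log2 fold change of 0.11 ± 0.0803, IFNGR1 of -0.12 ± 0.0825 and IFNGR2 of 0.06 ± 0.117.

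Among 11 genes of JAK-STAT signaling 1 was higher (9.09%, against 2.42% of all genes) and none lower. With the block 3 were higher (27.3%, against 12.1% of all genes) and none lower. These were STAT3, JAK1 and PTPN6 (adjusted p = 0.0267 for PTPN6, edgeR). STAT3, the transducer of interleukin-6 type cytokines, had 119, 125 and 130 CPM against 171, 176 and 174 CPM, a log2 fold change of 0.48 ± 0.0706 (adjusted p = 0.00777, edgeR) that missed the threshold without H295R-PM-Ptc+ replicate 2 (0.0520) or H295R-PM-Ptc+ replicate 3 (0.0518). The kinase gene TYK2 had a log2 fold change of 0.12 ± 0.0990 without a call, and JAK1 one of 0.14 ± 0.121 that was called with the block (adjusted p = 0.0390) but not without it (0.635).

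Of 20 nucleic acid sensing genes 15 were tested and none was called. Under the block 2 were higher (13.3%, against 12.1% of all genes) and 1 lower (6.67%, against 10.4%), which is near the share of all genes. The DNA sensor gene MB21D1, which encodes cGAS, had at most 0.196 CPM and was not tested, and ZBP1 and TLR7 had 0 counts.

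A list of 49 further interferon-induced genes shared 9 with the other pathway lists. Of the 40 others 32 were tested, 4 were higher (12.5%, against 2.42% of all genes) and none lower. With the block 10 were higher (31.2%, against 12.1% of all genes) and 2 lower (6.25%, against 10.4%). CASP1, the inflammasome protease, had 0.460, 0.118 and 0.243 CPM against 2.62, 1.45 and 1.60 CPM, a log2 fold change of 2.78 ± 0.423 (adjusted p = 0.00866). That call was lost without H295R replicate 3 (0.0537), and H295R replicates 2 and 3 fell short of the filter level, so the gene was tested through the other group. APOL1 and APOL6, apolipoprotein L genes, had log2 fold changes of 0.86 ± 0.158 (adjusted p = 0.0215) and 0.48 ± 0.0841 (adjusted p = 0.0181), and PARP12, which inhibits viral translation, one of 0.49 ± 0.102 (adjusted p = 0.0363). PARP12 was called without H295R replicate 1 and lost with each other library left out (adjusted p from 0.0742 to 0.144). APOL1 was lost without H295R replicate 2 (0.0826), H295R replicate 3 (0.103), H295R-PM-Ptc+ replicate 1 (0.0575) or H295R-PM-Ptc+ replicate 2 (0.0779), and APOL6 without H295R replicate 2 (0.0587), H295R replicate 3 (0.109), H295R-PM-Ptc+ replicate 2 (0.0896) or H295R-PM-Ptc+ replicate 3 (0.107). The chemokine genes CXCL9, CXCL10, CXCL11 and CCL5 had no more than 1 count in any library.

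Markers of other cells were low, with exceptions. The 12 leukocyte markers summed to 1.46 to 1.88 CPM in libraries labelled H295R and 2.03 to 2.31 CPM in those labelled H295R-PM-Ptc+, with PTPRC, CD3D, MS4A1 and CD68 at 0 counts in all 6 and CD14 at 15 to 32 counts. The 7 fibroblast and endothelial markers summed to 7.60 to 9.10 against 9.31 to 11.0 CPM, nearly all of it COL1A1, which had 188 to 244 counts in every library. Both sums were higher in the group in which the called members were higher, and their part in the result was not tested.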

How the data were processed

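RNA of 3 replicates each of H295R and H295R-PM-Ptc+ cells was sequenced on a NextSeq 500 in paired reads. The authors mapped the reads with STAR 2.4.0a to hg38 and counted them with featureCounts by gene name against Ensembl models of GRCh38, by strand, with multiply mapped reads at their primary position. The labels name Subread 1.5.0-p3, the methods an earlier Subread, and they differ on whether the stranded kit took mRNA or total RNA. The authors deposited whole-number counts per gene and library without normalization, and 1 row without a gene name, which held 0 counts, was left out.

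Groups and replicate numbers were taken from the sample titles. Counts were fitted with edgeR 4.0.16 in R 4.3.3 (TMM factors, the filterByExpr filter, and a two-sided quasi-likelihood F-test by glmQLFit and glmQLFTest with no covariate), and p-values were adjusted by Benjamini-Hochberg over all 16710 tested genes. A call means an adjusted p below 0.05. Standard errors came from the same fit, and CPM used the TMM-scaled totals. FPKM divided CPM by the merged exon length on the gene's main chromosome, from the exon coordinates deposited with the counts. The fits were also run on simulated counts without a replicate effect, with changes planted only outside genes with few counts. That run cannot show how the fits do with a replicate effect or in genes with few counts. Intervals and limits from counts cover counting error only.

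Deviations from the group means correlated, across genes, at 0.465, 0.280 and 0.201 between same-numbered replicates of the groups and at -0.325 to 0.134 between others, and the descriptions of same-numbered samples share a code, so the replicate number entered an alternative fit as a block. The other alternatives were size factors by relative log expression, DESeq2 1.42.0, limma-voom (limma 3.58.1), no filter, a filter of 10 counts per library, and fits with 1 library left out. Named are all members, with values per library for those called with or without the block, the called pathway genes, and a fixed set of receptors and kinases. Some results of the pathway genes are not reported here. Promoters were taken from a RefSeq table of GRCh38.p14, in which 40 members had an entry, with DDX58 listed as RIGI. The members, lists and tests were chosen with earlier results of these data known.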

Additional observations from a re-analysis of the deposited data

How the results depend on the processing

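The counts of calls depended most on the replicate block, on the filter and on single libraries. Size factors by relative log expression and DESeq2 called the same 9 members higher and the same 1 lower, limma-voom called 8 higher (without IFIT3), and no filter on low counts called 10 (with ISG15). Where every library had to hold at least 10 counts, 4 members were higher, since GBP4, XAF1 and EPSTI1 were no longer tested and IFIT3 and IRF1 missed the threshold. With the replicate block, 19 members were higher and 2 lower, and of 70 tested pathway genes 17 were higher (24.3%, against 12.1% of all genes) and 3 lower (4.29%, against 10.4%). Without the block 6 of the 70 were higher (8.57%, against 2.42% of all genes) and 0 lower. The block took no member's call away. Leaving out 1 library gave 2 to 10 members higher, 0 to 1 lower, 2 to 6 pathway genes higher and a median log2 fold change of the members from 0.08 to 0.26. The share of all genes called was taken only for the fits of all libraries with and without the block. Counts under the other settings therefore cannot be read as particular to the members. The fewest calls came without H295R replicate 3, where GBP2 and XAF1 alone remained. PTCH1 kept its direction in all of these fits, at a log2 fold change of -0.91 to -0.67 with 1 library left out. No member changed direction and call together under any of the 12 other settings. With 3 libraries per group, OAS2 and IFITM3, members with few counts, had standard errors of 0.512 and 0.416 on the log2 scale. Changes of that size, and larger ones, could not be told from 0 in them. By comparison, IFIT3, at 0.56 ± 0.127, only just passed (adjusted p = 0.0490, edgeR).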

Other observations

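Neighbors of the members were read in windows of 500 kb to either side that were looked at after the values were seen. Of 80 tested neighbors, 5 were higher (6.25%, against 2.42% of all genes) and 1 was lower (1.25%, against 1.32%), and with the replicate block 18 were higher (22.5%, against 12.1%) and 10 lower (12.5%, against 10.4%). The pseudogene ALOX12P2 lies 78.2 kb from XAF1 and had 4, 2 and 1 counts in libraries labelled H295R and 29, 45 and 27 in those labelled H295R-PM-Ptc+, a log2 fold change of 3.79 ± 0.442 (edgeR adjusted p = 0.00219). It passed the filter on low counts only through the group in which it was high, so its call is no support for a direction shared with XAF1. Without it and 4 other neighbors that fell short of the filter level in libraries of 1 group, 4 of 75 were higher (5.33%, against 2.08% of all genes treated the same way). Of the 23 tested neighbors of XAF1, PITPNM3 was also higher (0.52 ± 0.118, adjusted p = 0.0496) and none was lower. DNAJC15, a mitochondrial co-chaperone gene, begins 30.9 kb from EPSTI1 and was its only tested neighbor. It had 1.17, 1.81 and 1.17 CPM against 3.09, 4.38 and 3.67 CPM, a log2 fold change of 1.42 ± 0.226 (adjusted p = 0.0111). Near IRF1 the gene listed as AC004041.2, whose span overlaps that of RAD50, was the only one of 15 tested neighbors called by group, at 10.9, 9.25 and 8.90 CPM against 16.4, 15.6 and 16.5 CPM (0.74 ± 0.108, adjusted p = 0.00726).

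Around the guanylate-binding proteins none of 8 tested neighbors was called by group alone, as was the case around the IFIT genes (0 of 8), PARP9 and PARP14 (0 of 11) and DDX60 (0 of 1). With the block (edgeR), LIPA (adjusted p = 0.00131), PANK1 (0.0367), STAMBPL1 (0.0493) and RP11-80H5.9 (0.0423) were lower around the IFIT genes, and ACTA2 (0.000444) was higher. RP11-80H5.9 passed the filter only through 1 group. FAM162A, near PARP9, was lower (0.00344). CCBL2 (0.0382) and LRRC8B (0.0396), near the guanylate-binding proteins, and DDX60L (0.0468), near DDX60, were higher. The pseudogene GBP1P1 had a log2 fold change of 1.06 ± 0.418 and was called with the replicate block (adjusted p = 0.00569) but not without it (0.232). DTX3L, whose product partners with PARP9 and whose gene lies beside it, had 36.2, 39.3 and 38.9 CPM against 45.8, 50.0 and 44.2 CPM, a log2 fold change of 0.29 ± 0.0793, close to the 0.28 of PARP9 and called with the block (adjusted p = 0.00163) but not without it (0.0872). Near HERC5, which was lower, the bone matrix gene SPP1 was higher, at 15.7, 19.4 and 17.6 CPM against 43.6, 43.4 and 41.3 CPM (1.28 ± 0.0931, adjusted p = 0.000393). In the same window ABCG2, a drug efflux transporter gene, had the direction of HERC5, at 6.95, 3.23 and 3.07 CPM against 2.23, 1.37 and 1.64 CPM (-1.33 ± 0.347), and was called with the block (adjusted p = 5.39e-05) but not without it (0.0770). Between the 500 kb limits of the SAMD9 pair, CALCR, the calcitonin receptor gene, was lower by -1.03 ± 0.213 (adjusted p = 0.0347), against the direction of SAMD9 and SAMD9L.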
